A study of Mus musculus with 24 samples.

Results

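The genes described here are 9 regulators and structural genes of the epithelial-mesenchymal transition: the zinc-finger repressors Snai1, Snai2, Zeb1 and Zeb2, the bHLH factors Twist1 and Twist2, the homeobox factor Prrx1, and the mesenchymal proteins vimentin (Vim) and N-cadherin (Cdh2). They were taken by name, with earlier results of these data known, and all 9 were found among the 37230 genes of the series. RNA was sequenced from 24 libraries of live CD45-negative cells sorted from tumours on day 15 after mice were injected with cells of the mouse lung cancer lines LLC1 or KP. The LLC1 (Lewis lung carcinoma) groups were Parental, Chronic IFNG, which had met interferon gamma at a low level for a long time, and Relapsed, which had relapsed under immune checkpoint blockade. The KP line comes from a genetically engineered lung cancer model that carries p53 flox/flox, which all 5 KP groups share: Parental and Chronic IFNG as in LLC1, and 3 relapse groups named 1st, 2nd and Late. Both lines are syngeneic to the mice, and each of the 8 groups held 3 libraries. The treatment field reads None for all samples, and the labels do not say whether a line was 1 clone. The design text calls the libraries biological replicates without naming separate animals, so p-values measure only the spread between these samples.

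In the epithelial-mesenchymal transition an epithelial cell loses its junctions and takes on a motile, spindle-shaped form. SNAIL and ZEB proteins bind E-box DNA and repress epithelial genes such as E-cadherin (Cdh1), while TWIST and PRRX1 act as mesenchymal regulators during development and in fibroblasts. Vimentin is the main intermediate filament of mesenchymal cells, and N-cadherin often replaces E-cadherin at the membrane of transitioned carcinoma cells.

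To show what these repressors recognise, the 250 bases before the annotated start are given for 2 epithelial genes that rose in KP tumours, Epcam and Elf3, and for the regulators Snai1 and Twist1 (RefSeq, GRCm38.p6, strand of the gene). Capitals mark CAGGTG, the E-box favoured by SNAIL and ZEB, on either strand (it reads CACCTG on the other).
Epcam, chr17:87635729-87635978, plus strand: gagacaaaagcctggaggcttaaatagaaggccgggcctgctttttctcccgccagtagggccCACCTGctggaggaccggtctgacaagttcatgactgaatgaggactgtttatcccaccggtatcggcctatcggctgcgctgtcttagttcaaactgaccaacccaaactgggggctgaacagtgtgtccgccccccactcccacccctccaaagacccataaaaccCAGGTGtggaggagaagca
Elf3, chr1:135258473-135258722, minus strand: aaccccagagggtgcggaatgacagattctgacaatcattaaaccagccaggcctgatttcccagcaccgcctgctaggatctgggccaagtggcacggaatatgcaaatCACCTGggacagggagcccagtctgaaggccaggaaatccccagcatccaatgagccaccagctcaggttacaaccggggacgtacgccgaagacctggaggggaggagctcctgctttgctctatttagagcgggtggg
Snai1, chr2:167537945-167538194, plus strand: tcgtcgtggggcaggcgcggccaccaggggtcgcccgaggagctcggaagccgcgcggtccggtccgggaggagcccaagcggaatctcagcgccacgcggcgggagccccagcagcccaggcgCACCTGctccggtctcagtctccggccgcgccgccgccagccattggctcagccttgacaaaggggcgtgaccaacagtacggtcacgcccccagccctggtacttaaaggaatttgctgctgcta
Twist1, chr12:33957421-33957670, plus strand: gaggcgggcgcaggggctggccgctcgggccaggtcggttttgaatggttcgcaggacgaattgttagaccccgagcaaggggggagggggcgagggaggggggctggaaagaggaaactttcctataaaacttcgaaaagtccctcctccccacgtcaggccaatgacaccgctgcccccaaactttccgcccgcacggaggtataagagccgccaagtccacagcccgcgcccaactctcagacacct
The Epcam stretch held the motif 187 and 19 bases before the start, the Elf3 stretch 140 bases and the Snai1 stretch 126 bases before it. No match lay in the Twist1 stretch. Over windows of 300 bases, reaching 50 bases past the start, the motif was in 20.2% of 32851 promoters and in 17 of 21 promoters (81.0%, 15 genes) of a list of epithelial genes that holds known targets of these repressors. Of the 9 genes described here, 6 (Vim and 5 regulators) matched with 9 promoters, and 1 of these, that of Snai1, held it. The looser E-box CANNTG, which includes CAGGTG, was in 72.3% of all promoters, 85.7% of those of the epithelial list and 11.1% of those of the 6 matched genes. Snai2, Zeb1 and Cdh2 had no entry. These matches describe letters, not binding.

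Values below are normalised counts, calculated back from the deposited log2 values, and differences are log2 differences of the deposited values with the standard error of limma's fit. The deposited scale is compressed at low counts, so the log2 difference of a scarce gene understates its fold. A gene was tested where a group mean reached about 130.4 counts in LLC1 or 144.2 in KP, which all 9 genes passed in LLC1 and 7 of 9 in KP, where Snai1 and Snai2 stayed below it. A change was called at an adjusted p below 0.05 over all tested genes of the line. The lines were normalised separately and were not tested against each other.

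Estimated depth was 13.5 to 35.3 M fragments per LLC1 library and 13.7 to 32.9 M per KP library. The leukocyte gene Ptprc, which encodes CD45, and the endothelial gene Pecam1 were below the filter in both lines. The 10 endothelial markers, of which 1 was tested, summed to 157 ± 7.89 CPM (counts scaled to a common library total) in Parental KP, 120.1 ± 5.42 in Chronic IFNG, 179.5 ± 11.1 in 1st relapse, 209.5 ± 18.9 in 2nd relapse and 253 ± 10.6 in Late relapse. Endothelial markers below the filter did not all move with this sum. Pecam1 averaged 24.3, 22.8, 16.5, 30.1 and 23.0 counts in the same order, and Cdh5 14.6, 3.13, 7.13, 37.9 and 37.4 counts. The 12 leukocyte markers, of which 2 were tested, summed to 36.5 ± 9.33, 65.8 ± 8.91, 86.9 ± 2.95, 66.9 ± 5.69 and 56.5 ± 5.36 CPM in the same order. Leukocyte genes below the filter did not all move with this sum either. Ptprc averaged 104.5, 64.1, 51.6, 28.4 and 38.1 counts in the same order, but its Parental libraries ranged from 43.5 to 219.4. Csf1r was lowest in 2nd relapse, at 20.6 counts on average, and highest in Late relapse, at 49.4. In LLC1 the leukocyte sum was 21.8 ± 1.31 CPM in Parental, 19.5 ± 1.06 in Chronic IFNG and 41.3 ± 12.4 in Relapsed tumours, and the endothelial sum was 32.7 ± 4.05, 16.2 ± 1.59 and 26.3 ± 1.33 CPM. Of these lists' defining markers, the endothelial claudin gene Cldn5 was at 0 in 1st relapse KP and in Chronic IFNG LLC1, and the part of either list in the results was not tested. Fibroblast markers were present throughout the CD45-negative sort: the 14 genes of that list summed to 14487 ± 2527 CPM in Parental LLC1, 27792 ± 6677 in Chronic IFNG LLC1 and 14229 ± 961 in Relapsed LLC1. In KP they summed to 724 ± 144 CPM in Parental, 708 ± 385 in Chronic IFNG, 2446 ± 340.5 in 1st relapse, 81.9 ± 11.5 in 2nd relapse and 937 ± 859 in Late relapse. Late relapse replicate 3 stood apart, at 1927 CPM against 397 and 485 in the other two, and no marker of the list was at 0 in any group. Cdh1 was read at 1.48 to 11.3 counts on average over the LLC1 groups, below the filter, and at 3804 ± 622 in Parental KP. The 7 epithelial markers, of which 2 were tested in LLC1, summed to 275 ± 34.5 CPM in Parental LLC1 and 4356 ± 15.2 in Parental KP. Not all were scarce in LLC1: Krt8 and Krt18 passed the filter, at 3376 and 2979 counts on average in Parental LLC1. In sorted bulk samples fewer cells of a type and less RNA per cell cannot be told apart.

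Per kilobase of the longest transcript, which allows levels of different genes to be set side by side, Vim was the highest in both parental tumours, at 37026 counts per kb in LLC1 and 37109 in KP. It ranked 16th of all genes by mean count in each line. In Parental LLC1 Prrx1 followed at 966 counts per kb, then Twist1 at 588, Zeb1 at 464, Zeb2 at 363, Twist2 at 265, Snai1 at 198, Cdh2 at 84.7 and Snai2 at 72.9. In Parental KP the order behind Vim was Zeb1 at 374 counts per kb, Cdh2 at 311, Zeb2 at 285, Twist1 at 182, Prrx1 at 157, Twist2 at 92.4, Snai1 at 41.9 and Snai2 at 19.9. Prrx1 and Twist1 thus led the regulators in LLC1, and Zeb1 led them in KP.

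In KP tumours the ZEB repressors were lower in relapsed than in parental tumours. Zeb2 (chr2:44983632-45117395, minus strand, GRCm38) was 2692, 2445 and 2675 counts in Parental and 1626, 2032 and 1630.0 in Chronic IFNG libraries. It was 1352, 1653 and 1244 in 1st relapse, 1461, 1155 and 1191 in 2nd relapse and 1347, 1216 and 1389 in Late relapse. All 3 Parental libraries lay above the other 12. Zeb2 fell 1.48-fold in Chronic IFNG (log2 difference -0.46 ± 0.09, limma adjusted p = 0.00171), 1.84-fold in 1st relapse (-0.70 ± 0.09, 1.56e-05), 2.05-fold in 2nd relapse (-0.81 ± 0.09, 1.39e-06) and 1.98-fold in Late relapse (-0.77 ± 0.09, 5.44e-06). The 3 relapse groups did not differ from each other past the threshold in Zeb2, with limma adjusted p between 0.274 and 0.709. On chromosome 2, which holds Zeb2, Snai1 and Vim, 402 of 901 tested genes fell and 170 rose in 2nd relapse (all genes, 36.8% higher and 29% lower). The median there was -0.11, against 0.030 over all genes. In 1st and Late relapse the chromosome 2 medians were -0.0008 and 0.028. The part of this chromosome-wide difference in the values of the 3 genes was not tested.

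Zeb1 (chr18:5591860-5775467, plus strand) fell in 2nd and Late relapse. It was 2061, 2145 and 2299 counts in Parental, 1682, 2112 and 1615 in Chronic IFNG and 1903, 1970.0 and 1537 in 1st relapse. It was 1245, 1292 and 960.0 in 2nd relapse and 1552, 1588 and 1558 in Late relapse. The Chronic IFNG values overlapped the Parental ones, while those of each relapse lay below them. Zeb1 fell 1.86-fold in 2nd relapse (log2 difference -0.69 ± 0.09, limma adjusted p = 1.24e-05) and 1.38-fold in Late relapse (-0.37 ± 0.09, 0.00362). The 1st relapse difference was -0.22 ± 0.09 with a limma adjusted p of 0.065, and it passed the threshold with the replicate number as a block (0.0376), with median centring (0.0382), with only the 2 groups (0.0489) and without 1st relapse replicate 2 (0.0445). The Chronic IFNG difference was -0.22 ± 0.09 (0.112), and passed without Chronic IFNG replicate 2 (0.0225). Late relapse stood above 2nd relapse by 0.32 ± 0.09 (limma adjusted p = 0.00904), a call lost without 2nd relapse replicate 3 (adjusted p = 0.0533). Both Zeb1 and the fibroblast sum were lowest in 2nd relapse, and the part of fibroblast RNA in the Zeb1 values was not tested.

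As a share of the ZEB pair per kilobase, Zeb1 made up 56.7% ± 1.80 (SD, n = 3) in Parental KP, 61.6% ± 0.623 in Chronic IFNG, 66.7% ± 1.93 in 1st relapse, 59.0% ± 4.20 in 2nd relapse and 65.2% ± 1.83 in Late relapse. The summed pair went from 659 counts per kb in Parental to 504, 466, 340.1 and 414 in the same order. The share in Chronic IFNG, 1st and Late relapse lay above every Parental library.

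SNAIL genes were scarce in KP. Snai1 (chr2:167538195-167542814) was 55.6, 67.2 and 80.8 counts in Parental, 54.2, 67.5 and 65.5 in Chronic IFNG and 47.2, 50.0 and 66.4 in 1st relapse. It was 17.6, 24.6 and 12.7 in 2nd relapse and 47.8, 35.5 and 46.8 in Late relapse. The 2nd relapse libraries were the lowest 3 of the 15, with 52.6 estimated reads in all against 255 in the Parental libraries, a ratio of Parental to 2nd relapse of 3.71 (95% interval 2.73 to 5.04, counting error only). Snai1 stayed below the filter, and in the limma fit without a filter its difference was -0.33 ± 0.05 (adjusted p = 4.12e-05). The fibroblast sum was also lowest in 2nd relapse, and the part of fibroblast RNA in the Snai1 values was not tested. Snai2 (chr16:14705852-14709385) ranged from 22.3 to 67.8 counts over all 15 KP libraries, and its Parental values of 51.6, 27.2 and 42.0 overlapped those of every other KP group. Without the filter its limma adjusted p against Parental was 0.272 in Late relapse, the lowest of the 4 groups.

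Twist1, a bHLH regulator of mesoderm (chr12:33957671-33959829, plus strand), showed the widest fold range of the 9 genes in KP. It was 272, 314 and 305 counts in Parental and 262, 285 and 306 in Chronic IFNG libraries. It was 367, 443 and 373 in 1st relapse, 3.01, 2.14 and 5.94 in 2nd relapse and 120.0, 192 and 146 in Late relapse. Apart from Parental and Chronic IFNG, no 2 groups overlapped. The 2nd relapse libraries held about 10.2 estimated reads of Twist1 in all, which put the ratio of Parental to 2nd relapse at 80.4 (95% interval 44.2 to 171, counting error only). On the deposited scale this was -1.25 ± 0.06 (limma adjusted p = 2.49e-10). Twist1 fell 1.95-fold in Late relapse (-0.38 ± 0.06, 8.79e-05).

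In 1st relapse Twist1 was 1.33-fold higher than in Parental KP, a log2 difference of 0.19 ± 0.06 with a limma adjusted p of 0.0144. This call was lost with quantile normalisation (adjusted p = 0.209), on back-calculated counts (0.0572 and 0.186), without Parental replicate 1 (0.062) and without 1st relapse replicate 2 (0.0702). Over its 15 alternatives the adjusted p ran from 0.00747 to 0.209. Twist1 and the fibroblast markers were both highest in 1st relapse (2145 to 2816 CPM) and lowest in 2nd relapse (72.2 to 94.6 CPM). Of the 13 fibroblast markers tested, 9 rose and 0 fell in 1st relapse (all genes, 25.4% higher and 25.5% lower). In 2nd relapse 0 rose and 12 fell (all genes, 36.8% higher and 29% lower). In Late relapse 1 rose and 1 fell (all genes, 31% higher and 25.9% lower). Twist1 was below Parental in all 3 Late relapse libraries, including the 1 with the highest fibroblast sum. The part of fibroblast RNA in these differences was not tested.

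Twist2 (chr1:91801461-91848028), the paralog of Twist1, did not follow it. It was 240.3, 253 and 206 counts in Parental, 128, 197 and 127 in Chronic IFNG and 102, 87.2 and 103 in 1st relapse. It was 135, 75.7 and 103 in 2nd relapse and 119, 146 and 89.3 in Late relapse. Every Parental value lay above all others, and the 3 relapse groups overlapped. Twist2 fell 2.40-fold in 1st relapse (-0.43 ± 0.07, limma adjusted p = 0.000281), 2.23-fold in 2nd relapse (-0.41 ± 0.07, 0.000239) and 1.97-fold in Late relapse (-0.35 ± 0.07, 0.00111). Its Chronic IFNG difference of -0.24 ± 0.07 (limma adjusted p = 0.0325) was lost in 8 of 15 alternatives, among them those without Parental replicate 1 (0.0894) or 2 (0.107) and without Chronic IFNG replicate 1 (0.13) or 3 (0.122). Per kilobase, Twist1 made up 66.4% ± 3.04 of the TWIST pair in Parental, 86.1% ± 2.25 in 1st relapse, 5.26% ± 2.62 in 2nd relapse and 66.6% ± 5.44 in Late relapse (SD, n = 3).

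A gene near Twist1 is given here after its values had been seen. Hdac9, a class II histone deacetylase gene that lies from position 34047580 of chromosome 12, was 1565, 1474 and 1248 counts in Parental KP and 662, 1151 and 806 in Chronic IFNG. It was 159.9, 142 and 151 in 1st relapse, 7.02, 13.5 and 17.1 in 2nd relapse and 1077, 913 and 1098 in Late relapse. Hdac9 fell in every group against Parental, by 0.51 on the log2 scale in Chronic IFNG, by 1.74 in 1st relapse, by 2.47 in 2nd relapse and by 0.34 in Late relapse (limma adjusted p = 0.00219, 1.55e-08, 6.37e-11 and 0.0116). Both neighbours were thus nearly absent in 2nd relapse, but in 1st relapse Hdac9 was low while Twist1 was at its highest. Of the 5 genes tested within 1 Mb of Twist1, none rose in any KP relapse: 5 fell in 1st relapse (median -0.28), where Twist1 was higher, 4 in 2nd relapse (-0.39) and 4 in Late relapse (-0.34). These 5 genes include Hdac9. Over the 390 genes tested on chromosome 12, 142, 148 and 121 fell and 73, 89 and 92 rose in these groups. Over all tested genes 25.5%, 29% and 25.9% fell and 25.4%, 36.8% and 31% rose.

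Prrx1 (chr1:163245119-163313710, minus strand), a homeobox factor of mesenchymal tissue, was 1071, 986 and 1016 counts in Parental KP and 631, 829.9 and 853 in Chronic IFNG. It was 632, 606 and 671 in 1st relapse, 533, 706 and 684 in 2nd relapse and 798, 739 and 858 in Late relapse. All Parental libraries lay above the other 12. It fell 1.61-fold in 1st relapse (-0.44 ± 0.07, limma adjusted p = 0.000193), 1.60-fold in 2nd relapse (-0.44 ± 0.07, 0.000103) and 1.28-fold in Late relapse (-0.24 ± 0.07, 0.0123). The Chronic IFNG difference was -0.27 ± 0.07 (limma adjusted p = 0.0148), lost without Parental replicate 1 (0.057) or Chronic IFNG replicate 1 (0.0777), and that of Late relapse was lost without Late relapse replicate 2 (0.0518). Prrx1 differed between 2nd and 1st relapse by 0.002 ± 0.073, and the fibroblast sum was lowest in 2nd and highest in 1st relapse. The part of fibroblast RNA in the Prrx1 values was not tested.

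**Figure D1:**
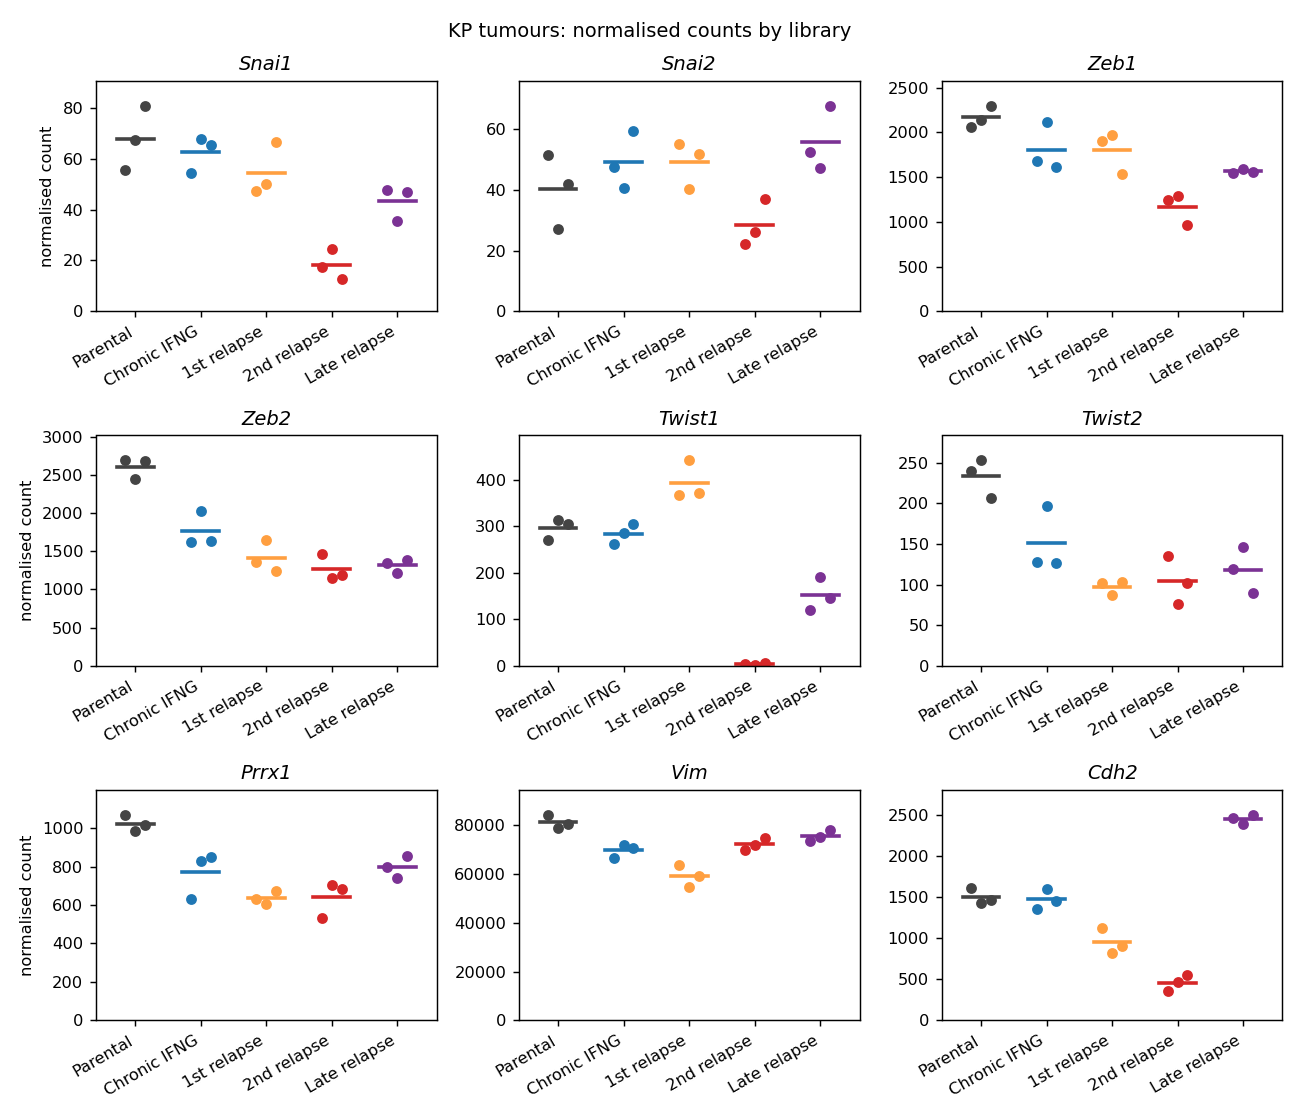
Normalised counts of the 9 genes in the 15 KP libraries, 1 panel a gene, with groups on the horizontal axis, counts on a linear vertical axis from 0, points for libraries and bars for group means. Twist1 is near 0 in 2nd relapse and highest in 1st relapse, Cdh2 is highest in Late relapse and lowest in 2nd relapse, and Zeb2, Twist2 and Prrx1 are highest in Parental.

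**Figure D2:**
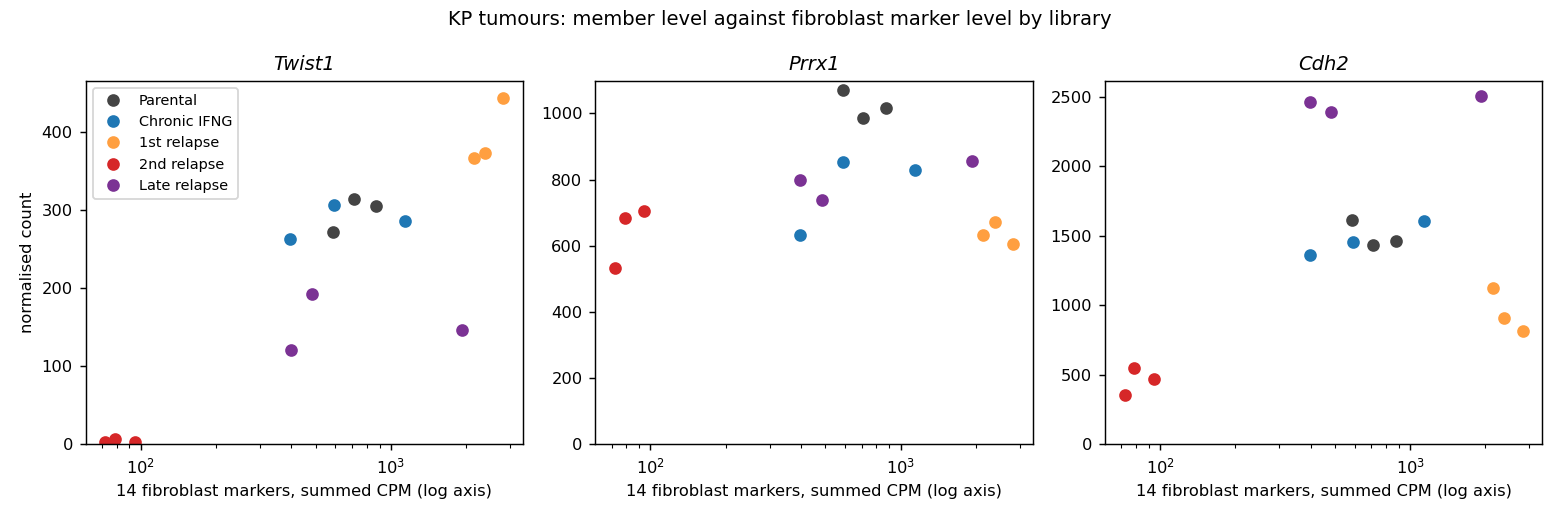
Normalised counts of Twist1, Prrx1 and Cdh2 in each KP library (vertical axes, linear from 0) against the summed CPM of 14 fibroblast markers in that library (horizontal axes, log). Twist1 libraries of 1st and 2nd relapse sit at the 2 ends. The 3 Late relapse libraries hold similar Cdh2 counts (2395 to 2507) at fibroblast sums of 397 to 1927 CPM. The part of fibroblast RNA in these counts was not tested.

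Vim (chr2:13573927-13582826) was abundant in every KP library. It was 84431, 79119.8 and 80590.3 counts in Parental and 66601, 72088 and 70718 in Chronic IFNG. It was 63781, 54844 and 59210.2 in 1st relapse, 70057, 72037 and 74915 in 2nd relapse and 73713, 75328 and 78076 in Late relapse. All 12 other libraries lay below the 3 Parental ones. Vim fell 1.37-fold in 1st relapse (-0.46 ± 0.06, limma adjusted p = 1.69e-05), the only one of its falls that every alternative kept. The falls in Chronic IFNG (-0.22 ± 0.06, 0.0139) and 2nd relapse (-0.17 ± 0.06, 0.0192) were both lost without Parental replicate 1 (0.0639 and 0.0791). The first was also lost without Chronic IFNG replicate 1 (0.0668) and with quantile normalisation (0.419), and the second without 2nd relapse replicate 1 (0.069). The Late relapse difference was -0.10 ± 0.06 (limma adjusted p = 0.143).

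Cdh2 (chr18:16588877-16809246, minus strand) moved in opposite directions between relapses. It was 1614, 1433 and 1464 counts in Parental and 1360.1, 1606 and 1452 in Chronic IFNG. It was 1126, 816 and 907 in 1st relapse, 352, 467 and 548 in 2nd relapse and 2465, 2395 and 2507 in Late relapse. Parental and Chronic IFNG overlapped, and no other 2 groups did. Cdh2 fell 1.58-fold in 1st relapse (log2 difference -0.48 ± 0.09, limma adjusted p = 0.000353) and 3.30-fold in 2nd relapse (-1.12 ± 0.09, 3.32e-08), and rose 1.63-fold in Late relapse (0.56 ± 0.09, 7.47e-05). Late relapse was 5.39-fold above 2nd relapse (1.68 ± 0.09, 1.27e-09). All 3 calls against Parental were kept in each of 16 alternatives. On chromosome 18, which holds Cdh2 and Zeb1, 151 of 309 tested genes rose and 42 fell in Late relapse (all genes, 31% higher and 25.9% lower). The median there was 0.13, against 0.014 over all genes. In 1st and 2nd relapse, where Cdh2 fell, the chromosome 18 medians were -0.015 and 0.10. The part of these chromosome-wide differences in the Cdh2 values was not tested.

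E-cadherin, the classical partner in a cadherin switch, was 4494, 3288 and 3631 counts in Parental KP and 8273, 7089.9 and 9408 in Chronic IFNG. It was 9923, 9328 and 10916 in 1st relapse, 15586, 17036 and 16748 in 2nd relapse and 6212, 7665 and 7337 in Late relapse. Every Parental value was below all others. Cdh1 rose 2.17-fold in Chronic IFNG, 2.64-fold in 1st relapse, 4.33-fold in 2nd relapse and 1.86-fold in Late relapse (limma adjusted p = 1.23e-05, 3.12e-07, 1.12e-09 and 2.37e-05). In 2nd relapse Cdh1 was thus at its highest and Cdh2 at its lowest, while in Late relapse both were above Parental. Of the 6 tested genes of a cadherin list that held neither Cdh2 nor any other of the 9, the liver-intestine cadherin Cdh17 changed most, from 475 ± 102 counts in Parental to 16399 ± 1059 in 2nd relapse and 11060.2 ± 750.1 in Late relapse (log2 differences 4.14 and 3.60).

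Counted over the regulators, Vim and Cdh2 together, Chronic IFNG KP had 0 genes higher and 4 lower than Parental of 7 tested, where 21.8% of all tested genes were called, 12.8% higher and 9% lower. The median difference of the 7 was -0.22, against -0.0080 over all tested genes. This count ranged from 1 to 5 when 1 library was left out, and was 1 without Parental replicate 1 or without Chronic IFNG replicate 1. In 1st relapse 1 rose and 5 fell (50.9% of all genes, 25.4% higher and 25.5% lower), with a median of -0.44 against -0.0061. In 2nd relapse 0 rose and 7 fell (65.8% of all genes, 36.8% higher and 29% lower), with a median of -0.69 against 0.030. In Late relapse 1 rose and 5 fell (56.9% of all genes, 31% higher and 25.9% lower), with a median of -0.35 against 0.014. Without Late relapse replicate 3, the library with the high fibroblast sum, 6 genes were called in Late relapse. The 4 comparisons share their Parental libraries.

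Between relapses, 2nd relapse differed from 1st relapse in 4 of the 7 genes, 1 higher and 3 lower (62.2% of all genes, 34.3% higher and 28% lower). Late relapse differed from 1st relapse in 4, 3 higher and 1 lower (48.1% of all genes, 24.6% higher and 23.5% lower), and from 2nd relapse in 4, all higher (54.9% of all genes, 25.2% higher and 29.7% lower). These shares of 4 in 7 stand near the share of all genes. Zeb2 and Twist2 differed in none of the 3 comparisons, and Twist1 and Cdh2 differed in all of them. Against Chronic IFNG instead of Parental, Twist1 was higher in 1st relapse (0.22, limma adjusted p = 0.0124), and 3 of the 7 genes were called (31% of all genes, 15.8% higher and 15.1% lower). In 2nd relapse 4 were called (64.3% of all genes, 35.1% higher and 29.2% lower), all lower, and in Late relapse 3 (50.4% of all genes, 25.8% higher and 24.6% lower), with Zeb2 (-0.31) and Twist1 (-0.36) lower and Cdh2 (0.58) higher.

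A list of epithelial factors and of genes that ZEB or SNAIL proteins are known to repress was mostly higher in the KP groups in which Zeb2 was lower. Of its 31 genes 20 were tested in KP. In Chronic IFNG 15 rose and 1 fell (median 0.61), in 1st relapse 16 and 1 (median 1.07), in 2nd relapse 15 and 2 (median 0.75) and in Late relapse 15 and 1 (median 0.40). Over all tested genes 12.8%, 25.4%, 36.8% and 31% rose in these groups. The adhesion molecule Epcam was 635, 725 and 914 counts in Parental and 5229, 2965 and 4813 in Chronic IFNG. It was 6826, 6779 and 8497 in 1st relapse, 1473, 1649.8 and 1299 in 2nd relapse and 1981, 2908 and 2907 in Late relapse. Epcam thus peaked in 1st relapse (9.72-fold over Parental, limma adjusted p = 2.97e-08). In 2nd relapse it was lower than in 1st relapse, though above every Parental library. Zeb1 was at its lowest mean in 2nd relapse, while Zeb2 did not differ between the relapse groups past the threshold. The epithelial factor Elf3 went from 247 ± 69.6 counts in Parental to 2224 ± 98.2 in 1st relapse and 898 ± 183 in Late relapse. Desmoplakin (Dsp), which ties keratin filaments to desmosomes, went from 575 ± 28.3 to 4566 ± 416 in 2nd relapse. The sum of 7 epithelial markers was 4356 ± 15.2 CPM in Parental and 8091 ± 357 in 2nd relapse, where the fibroblast sum was lowest, and the part of fibroblast RNA in these differences was not tested.

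**Figure D3:**
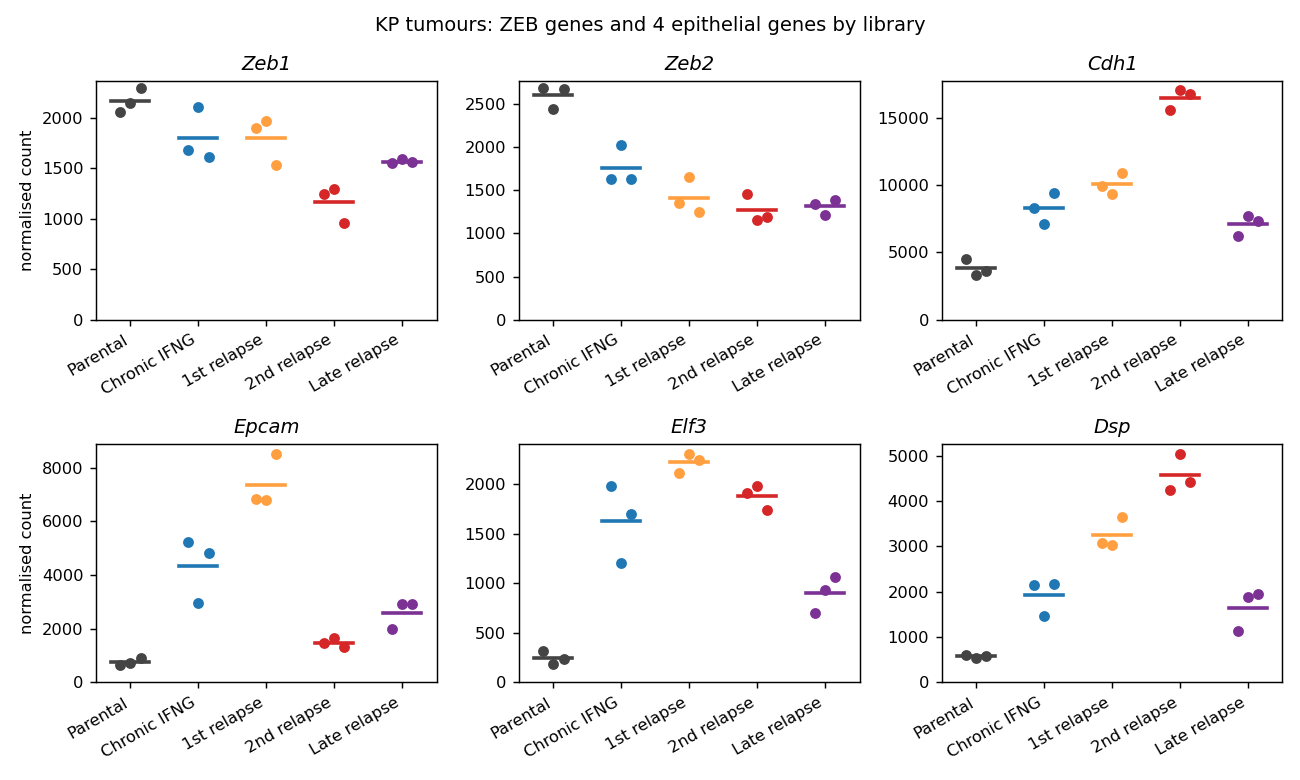
Normalised counts of Zeb1, Zeb2 and the epithelial genes Cdh1, Epcam, Elf3 and Dsp in the 15 KP libraries, with groups on the horizontal axes, points for libraries, bars for group means and linear vertical axes from 0. Both ZEB genes are highest in Parental, where the 4 epithelial genes are lowest, and Epcam peaks in 1st relapse (6779 to 8497 counts).

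Among the 19 mesenchymal effector genes tested in KP, 1 rose and 14 fell in 2nd relapse (median -0.88), against 0 and 8 in Chronic IFNG (-0.19), 8 and 7 in 1st relapse (-0.10) and 3 and 7 in Late relapse (-0.15). Over all tested genes 29% fell in 2nd relapse, 9% in Chronic IFNG, 25.5% in 1st relapse and 25.9% in Late relapse. The matrix gene Sparc went from 17613 ± 570.1 counts in Parental to 389 ± 39.3 in 2nd relapse (log2 difference -4.39, limma adjusted p = 1.19e-12). In 1st relapse the collagens Col1a2 (2.26), Col1a1 (2.03) and Col3a1 (1.76) rose most, and these are also fibroblast genes. In Late relapse the matrix protein gene Tgfbi fell (-1.49), as did fibronectin, Fn1 (-0.74).

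TWIST proteins act as dimers with E proteins, and ID proteins sequester those partners. Of 7 tested genes of that list, Id2 rose from 703 ± 51.5 counts in Parental to 1349 ± 124 in Chronic IFNG, 2556 ± 265 in 1st relapse, 4677 ± 139 in 2nd relapse and 2631 ± 544 in Late relapse, with limma adjusted p from 2.06e-10 to 0.000315. Id1 rose in the same 4 comparisons, from 364 ± 31.8 counts to between 607 and 1279. Id3 did not follow them throughout. It was 516 ± 72.5 counts in Parental, 591 ± 30.1 in Chronic IFNG, 1618 ± 280 in 1st relapse and 917 ± 206 in Late relapse. In 2nd relapse Id3 was below Parental, at 367 ± 18.2 counts. In 2nd relapse the list had 2 genes higher and 5 lower (all genes, 36.8% higher and 29% lower), with the E protein Tcf12 at -0.55.

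Of the other mesenchymal transcription factors, 9 of 21 were tested, and 5, 7 and 6 of them fell in 1st, 2nd and Late relapse, with 2, 1 and 2 rising. Over all tested genes 25.5%, 29% and 25.9% fell in these groups. The YAP partner Tead2 went from 2318 ± 95.5 counts in Parental to 262 ± 69.8 in 2nd relapse (-1.99, limma adjusted p = 1.99e-11), while Foxq1 rose there by 1.03. Among 12 corepressors of SNAIL and ZEB, 7 fell and 3 rose in 2nd relapse (all genes, 36.8% higher and 29% lower), led by the histone methyltransferase Suv39h1 (-1.70), which also fell in Chronic IFNG (-0.46), 1st relapse (-0.39) and Late relapse (-0.91).

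Genes that control turnover of SNAIL and ZEB proteins had 5 higher and 3 lower of 10 tested in 2nd relapse, near the shares of all genes (36.8% higher and 29% lower). The ubiquitin ligase adaptor Fbxl5, which targets SNAIL1, rose in every KP group against Parental, by 0.41, 0.50, 0.73 and 0.55 in Chronic IFNG, 1st, 2nd and Late relapse. TGF-beta signalling genes, which lie upstream, had 1 higher and 5 lower of 12 in Chronic IFNG, 2 and 5 in 1st relapse, 5 and 4 in 2nd relapse and 4 and 5 in Late relapse. The shares of all tested genes called in these groups, in either direction, were 21.8%, 50.9%, 65.8% and 56.9%. The type I receptor Tgfbr1 fell in 1st relapse (-0.72) and Late relapse (-0.74), and the coreceptor Tgfbr3 fell in 2nd relapse (-1.53).

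Of the filament genes that accompany Vim, 4 were tested in KP, and nestin (Nes), which co-assembles with vimentin, rose in 1st relapse (0.42), 2nd relapse (0.65) and Late relapse (1.54). Of 7 tested catenins and cadherin partners, 6 rose and 0 fell in Chronic IFNG (all genes, 12.8% higher and 9% lower), with plakoglobin (Jup) at 0.50, and 3 rose and 2 fell in 2nd relapse (all genes, 36.8% higher and 29% lower), with beta-catenin (Ctnnb1) at -0.39.

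By Pearson correlation over the 15 KP libraries, among 3257 genes at least 3 log2 units above the lowest value in a group, the profile most like Twist1 was that of Sh3bgrl (r = 0.99), followed by Otud5 (0.99) and Gpm6b (0.98). For Cdh2 they were Tnfrsf26 (0.97), Fbxw8 (0.95) and Yes1 (0.95), for Zeb2 they included Inf2 (0.96) and Smad5 (0.95), and for Zeb1 Adgrl3 (0.95), Zfp469 (0.93) and Thoc2 (0.93). For Twist2 they were Ahnak (0.89), Esyt1 (0.88) and Ttc13 (0.88), for Prrx1 Sec63 (0.93), Dip2a (0.92) and Osbpl8 (0.92) and for Vim Steap2 (0.92), Sin3b (0.92) and Hmga1 (0.91). In LLC1, over 9 libraries and 3138 genes, the profile most like Zeb2 was that of Fermt2 (0.98), most like Zeb1 Mtmr3 (0.99), most like Snai1 Tbc1d20 (0.99), most like Prrx1 Paip2 (0.98) and most like Vim Ctsb (0.98). The libraries share groups and a common scaling, so these values describe likeness only.

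In LLC1 tumours, where Cdh1 was barely read, Relapsed tumours had lower levels of 6 of the 9 genes than Parental tumours, and none was called higher. Both ZEB genes were among them. Zeb2 was 3705, 3192 and 3045 counts in Parental, 2389.7, 2644 and 2256 in Chronic IFNG and 1967, 2084 and 2101 in Relapsed libraries. The 3 groups did not overlap. Zeb2 fell 1.36-fold in Chronic IFNG (log2 difference -0.38 ± 0.07, limma adjusted p = 0.00477) and 1.62-fold in Relapsed tumours (-0.58 ± 0.07, 0.000109), and both calls held in each of 16 alternatives. Zeb2 and Prrx1 were the genes of the 9 called lower in all 6 comparisons with Parental tumours, 2 in LLC1 and 4 in KP.

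Zeb1 was 2655, 2852 and 2560.4 counts in Parental, 3223, 2677 and 2871 in Chronic IFNG and 2056, 2096 and 2009 in Relapsed LLC1. Relapsed values were the lowest, and the other 2 groups overlapped. It fell 1.31-fold against Parental (-0.32 ± 0.06, limma adjusted p = 0.00197). Zeb1 lies on chromosome 18, where 186 of 280 tested genes were called lower in Relapsed LLC1 and 18 higher, with a median difference of -0.26, against 19.5% called lower over all genes. Of the 6 genes tested within 1 Mb of Zeb1, 5 fell and 0 rose, and the part of this chromosome-wide difference in the Zeb1 value was not tested. As a share of the ZEB pair per kilobase, Zeb1 was 56.1% ± 2.81 in Parental, 65.4% ± 3.46 in Chronic IFNG and 61.2% ± 1.06 in Relapsed LLC1 (SD, n = 3). In KP, a separate line, chromosome 18 had a median of 0.10 in 2nd relapse and Zeb1 fell by 0.69. The relation of these values to those in LLC1 was not tested.

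SNAIL genes were better expressed in LLC1. Snai1 was 325, 310.3 and 329 counts in Parental, 436, 444 and 428 in Chronic IFNG and 252, 279 and 309.7 in Relapsed libraries. The Chronic IFNG libraries lay above all others. Snai1 rose 1.36-fold in Chronic IFNG (0.23 ± 0.05, limma adjusted p = 0.00806) and differed from Parental in Relapsed tumours by -0.10 ± 0.05 (0.127). Fibroblast markers rose in Chronic IFNG LLC1 as well, 11 higher and 0 lower of 14 (all genes, 9.03% higher and 15.5% lower). Their sums went from 11735 to 16703 CPM in Parental to 22292 to 35221 CPM, and their part in the Snai1 difference was not tested. Snai2 was 162, 155 and 125 counts in Parental, 132, 148 and 154 in Chronic IFNG and 109, 91.5 and 92.7 in Relapsed libraries. Snai2 fell in Relapsed tumours (-0.19 ± 0.05, limma adjusted p = 0.0147), a call lost without Parental replicate 1 (0.0551) or 2 (0.0504) and without Relapsed replicate 2 (0.0516).

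Twist1 was 881, 987 and 1004 counts in Parental, 839, 835 and 776 in Chronic IFNG and 793, 799 and 837 in Relapsed LLC1. All Parental values were above the rest. The differences were small, -0.15 ± 0.05 in Chronic IFNG (limma adjusted p = 0.0454, called in 5 of 15 alternatives, and not without Parental replicate 2 or 3 or any Chronic IFNG library, 0.0655 to 0.129) and -0.16 ± 0.05 in Relapsed tumours (0.0217, called in 11 of 15, and not without Parental replicate 2 or 3 or Relapsed replicate 1 or 2, 0.0655 to 0.0755). With the replicate number as a block, the adjusted p in Chronic IFNG was 0.0699. On chromosome 12, which holds Twist1, 157 of 375 tested genes fell in Chronic IFNG LLC1 and 15 rose (all genes, 9.03% higher and 15.5% lower). The median there was -0.15, and 3 of 4 genes tested within 1 Mb fell. In Relapsed LLC1, where Twist1 fell by about as much, the chromosome 12 median was -0.016. There 2 of the 4 neighbours rose and 0 fell (all genes, 25.9% higher and 19.5% lower). Hdac9 was below the filter in LLC1. Twist2 ranged from 575 to 760 counts over the 9 libraries and differed in no LLC1 comparison (limma adjusted p from 0.231 to 0.719).

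Prrx1 was 6724, 6262 and 5921 counts in Parental, 5842, 4989 and 4911 in Chronic IFNG and 4807, 4335 and 4844 in Relapsed LLC1. The 3 groups did not overlap. It fell 1.35-fold in Relapsed tumours (-0.40 ± 0.07, limma adjusted p = 0.00145). In Chronic IFNG it fell by 0.25 on the log2 scale (limma adjusted p = 0.0349), a call kept in 9 of 16 alternatives and lost without Parental replicate 1 (0.118) or 2 (0.0784) and without Chronic IFNG replicate 2 (0.114) or 3 (0.0891). This fall stood beside higher fibroblast markers in the same libraries, and the part of fibroblast RNA in it was not tested.

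Vim was 74389, 79015 and 90193 counts in Parental, 79019.7, 79542 and 84447 in Chronic IFNG and 58898, 64913 and 65268 in Relapsed LLC1. Relapsed values were the lowest 3. Vim fell 1.29-fold against Parental (-0.36 ± 0.08, limma adjusted p = 0.00347), but with quantile normalisation, which gives genes of the same rank the same value, the difference was 0.02 (adjusted p = 0.922) and that against Chronic IFNG was 0 (adjusted p = 1). Cdh2 was 405, 429.9 and 397 counts in Parental, 341, 390.3 and 236 in Chronic IFNG and 297, 311 and 369 in Relapsed LLC1. All Parental values were above the rest, but the differences of -0.19 ± 0.08 and -0.17 ± 0.08 did not pass the threshold (limma adjusted p = 0.117 and 0.105). Cdh2 lies on chromosome 18, as Zeb1 does, where the medians in these comparisons were -0.14 and -0.26. The part of this chromosome-wide difference in the Cdh2 values was not tested.

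**Figure D4:**
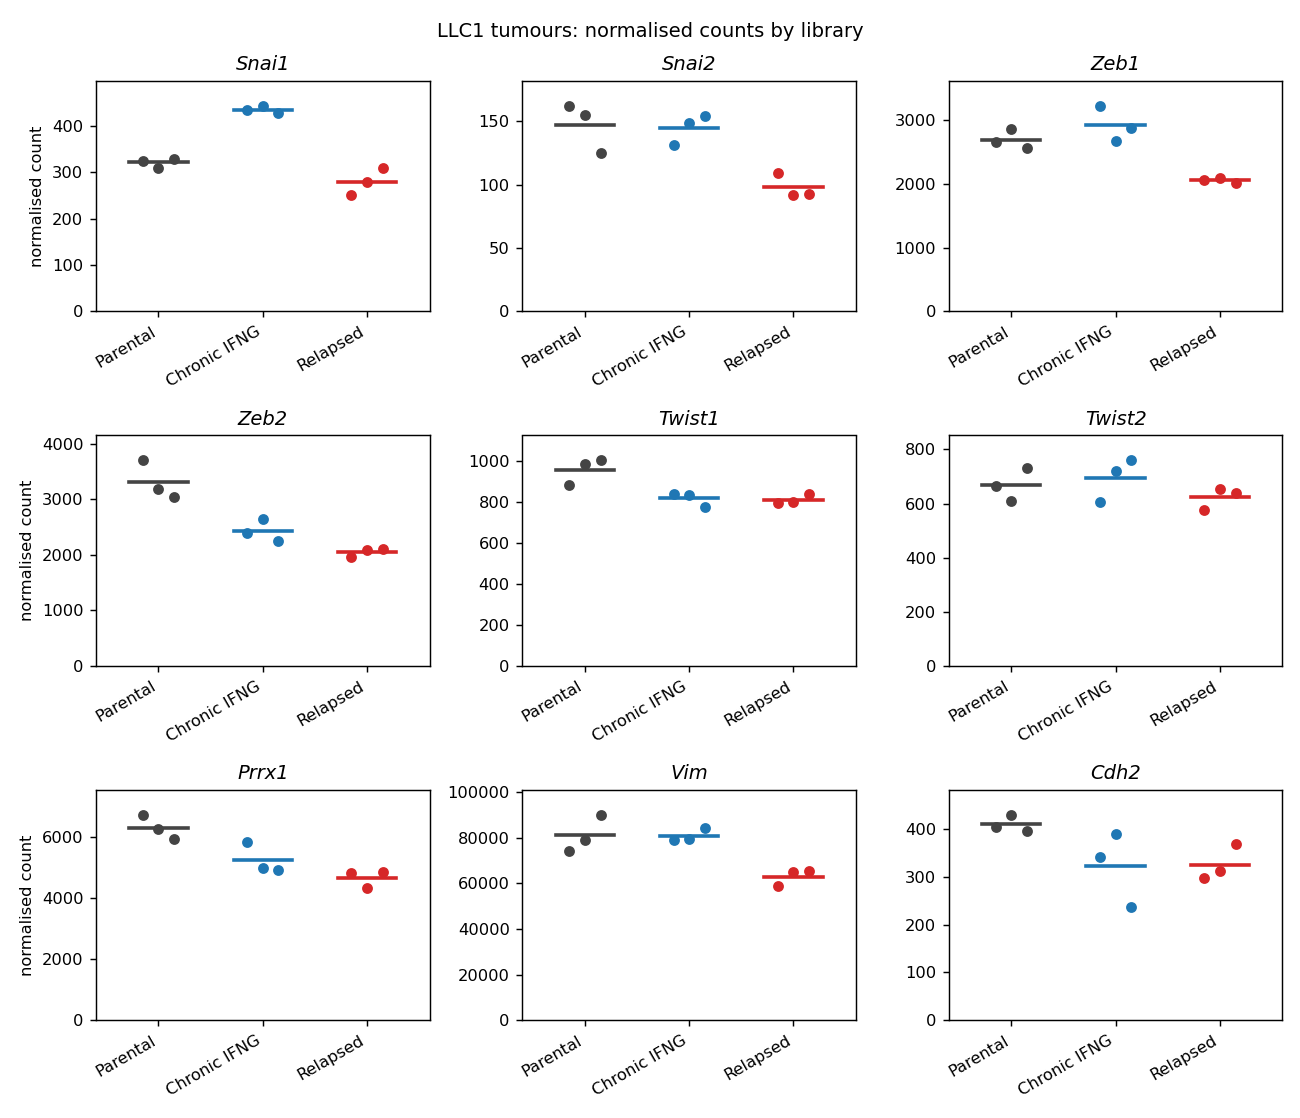
Normalised counts of the 9 genes in the 9 LLC1 libraries, 1 panel a gene, with groups on the horizontal axis, counts on a linear vertical axis from 0, points for libraries and bars for group means. Zeb2 and Prrx1 step down from Parental to Chronic IFNG to Relapsed without overlap, and Snai1 is highest in Chronic IFNG (428 to 444 counts).

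Counted together in LLC1, Chronic IFNG had 1 of the 9 genes higher and 3 lower than Parental (24.5% of all genes, 9.03% higher and 15.5% lower), with a median of -0.008 against -0.016 over all genes. That count was 2 in 4 of the alternatives over all libraries and 2 to 3 when 1 library was left out, with 2 without Parental replicate 2, Chronic IFNG replicate 2 or Chronic IFNG replicate 3. Relapsed had 0 higher and 6 lower (45.4% of all genes, 25.9% higher and 19.5% lower), with a median of -0.19 against 0.025. Against Chronic IFNG, Relapsed had 0 higher and 5 lower (52% of all genes, 31.5% higher and 20.5% lower), with a median of -0.18 against 0.039. Those 5 were Snai1 (-0.32), Snai2 (-0.18), Zeb1 (-0.42), Zeb2 (-0.20) and Vim (-0.36), and without Relapsed replicate 2 or replicate 3 the count was 3, as the Snai2 and Zeb2 calls were lost.

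Only 4 of 31 epithelial list genes were tested in LLC1, and the epithelial marker Cldn7 was at 0 in Relapsed tumours. In Relapsed tumours 3 rose and 0 fell (all genes, 25.9% higher and 19.5% lower), led by the tight junction gene Ocln (1.15, limma adjusted p = 1.5e-07) and Krt18 (0.43). In Chronic IFNG 0 rose and 2 fell (all genes, 9.03% higher and 15.5% lower), Pkp3 (-0.25) and Ocln (-0.22). Of 18 tested mesenchymal effectors, 9 rose and 1 fell in Chronic IFNG, with Col1a2 (1.32), Col1a1 (1.29) and Fn1 (1.23) ahead, while 4 rose and 8 fell in Relapsed tumours. S100a4, a calcium-binding protein of motile cells, rose there (1.80). Of the other mesenchymal factors 12 were tested, and in Relapsed tumours 3 rose, led by Prrx2 (0.51), the paralog of Prrx1, and 5 fell, led by Sox9 (-0.62). Peripherin (Prph), a filament protein of the vimentin class, rose in Relapsed tumours (0.48).

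**Figure D5:**
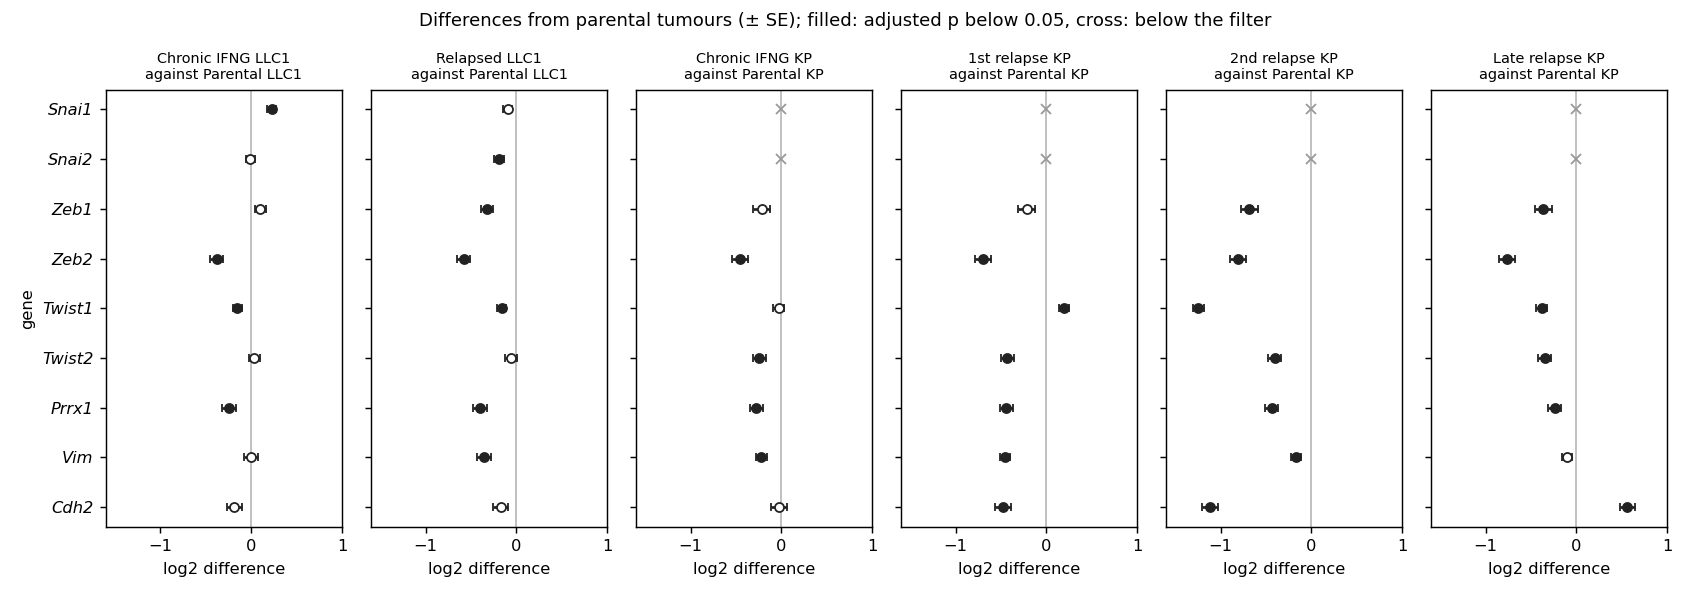
Log2 differences of the 9 genes from Parental tumours in the 6 comparisons (horizontal axes, points with SE bars from limma), with genes on the vertical axis. Filled points passed an adjusted p below 0.05, open points did not, and crosses mark genes below the filter; Zeb2 and Prrx1 are filled and left of 0 in all 6 panels.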

How the data were processed

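RNA came from 24 libraries of sorted tumour cells. The labels' protocols name lysis of red cells, DNase I treatment and paired stranded sequencing of total RNA on a NovaSeq. Tools and build listed in the submitters' processing notes are cutadapt 2.9, Salmon 1.8.0, DESeq2 1.34.0 and GRCm38/mm10, and their roles are not given. The deposited values are log2 values on a variance-stabilised scale, in a separate table per line (31618 genes in LLC1, 36040 in KP); this is read from the values themselves. With the lowest value of a table taken as a count of 0, counts were calculated back by inverting that scale, and 77.0% to 82.3% of low values per library fell within 0.15 of a whole read, against 30% by chance.

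The filter (1 log2 unit above the lowest value in a group mean) kept 10581 LLC1 and 11193 KP genes. Differences were fitted with limma 3.58.1 (R 4.3.3, trend, all groups of a line), with Benjamini-Hochberg adjustment per comparison. With 3 against 3 libraries no exact test goes below 0.1. Members and lists were chosen with earlier results of these data known. Named list genes were the 3 largest called differences per list and comparison with Parental, plus Cdh1, with their values elsewhere; likeness was given for the top 3 genes by correlation; a few items that fall under these rules are not reported here. Further levels of list genes, the region around Twist1 and Zeb1, and the chromosome 2 and 18 counts were picked after values were seen. On simulated data, steps of 0.5 log2 units were recovered in 86.6% (Chronic IFNG LLC1) to 95.5% (Relapsed LLC1) of changed genes. Steps of 0.25 were recovered in 37.3% (Chronic IFNG LLC1) to 58.2% (1st and 2nd relapse KP). The simulation used normal noise and changed far fewer genes than were called in the data, so these rates hold for that setting only. Same-numbered replicates deviated together, at over 0.1 in all 3 pairs, only for Parental with 1st relapse KP (0.149, 0.112 and 0.206); the labels do not say what a number marks. Alternatives were other filters, scalings, pseudocounts, fits and left-out libraries.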

Additional observations from a re-analysis of the deposited data

Results flagged for a closer look

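Differences between the KP relapse groups, tested directly in limma, passed an adjusted p below 0.05 for 5 of the 7 tested genes. Between 2nd and 1st relapse these were Twist1 (log2 difference -1.44, adjusted p = 1.37e-10), Cdh2 (-0.64, 1.42e-05) and Zeb1 (-0.47, 0.000463), all lower in 2nd relapse, and Vim (0.29, 0.000605), higher there. Vim was -0.06 with quantile normalisation.

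Between Late and 1st relapse, Twist1 was lower in Late relapse (-0.58, limma adjusted p = 4.67e-06), and Cdh2 (1.04, 6.01e-07), Vim (0.35, 0.00022) and Prrx1 (0.20, 0.0354) were higher. Between Late and 2nd relapse, Cdh2 (1.68, 1.27e-09), Twist1 (0.86, 2.74e-08), Zeb1 (0.32, 0.00904) and Prrx1 (0.20, 0.0328) were higher in Late relapse. Each of the 3 libraries of a group lay on the same side of the other group in all of these. The Prrx1 call against 1st relapse was lost without 1st relapse replicate 1 (0.0758) or 2 (0.099) and without Late relapse replicate 1 (0.0744) or 3 (0.116), and that against 2nd relapse without 2nd relapse replicate 1 (0.168) and without Late relapse replicate 1 (0.0659) or 3 (0.112). The Zeb1 call between Late and 2nd relapse was lost without 2nd relapse replicate 3 (0.0533).

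Across lines, Twist1 was lower than Parental in all 3 Relapsed LLC1 libraries and higher in all 3 libraries of 1st relapse KP (0.19). These calls held in 11 and 10 of 15 alternatives. Cdh2 was lower in all 3 Relapsed LLC1 libraries, a difference that was not called (limma adjusted p = 0.105). It was higher in all 3 of Late relapse KP (0.56). Chromosome 18, which holds Cdh2, had medians of -0.26 in Relapsed LLC1 and 0.13 in Late relapse KP, and their part in the Cdh2 values was not tested. The difference between lines was not tested, since the lines were normalised separately.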

How the results depend on the processing

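Over 76 differences of the 9 genes in 10 comparisons, 1180 alternative values were computed (none for the 3 KP comparisons with Chronic IFNG). Of these, 1074 kept their direction and side of the threshold and 31 changed sign. With the sign kept, 66 lost a call and 9 gained one. Of 50 called differences, 16 lost their call with the sign kept in at least 1 alternative. Another 2, both of Vim, changed sign with quantile normalisation and were not called there (limma adjusted p = 0.922 and 0.489). With the stricter filter, which tests fewer of the genes, the number called was 2 in Chronic IFNG LLC1, 3 in Relapsed against Chronic IFNG LLC1, 2 in Chronic IFNG KP, 3 in 1st relapse, 4 in 2nd relapse, 3 in Late relapse, 2 in Late against 1st relapse and 2 in Late against 2nd relapse. In Chronic IFNG LLC1 it was also 2 with no filter, with quantile normalisation and with only the 2 groups; the cause was not tested. Leaving out 1 library gave 2 to 3 called genes in Chronic IFNG LLC1, 4 to 6 in Relapsed LLC1, 3 to 5 in Relapsed against Chronic IFNG LLC1, 1 to 5 in Chronic IFNG KP, 5 to 6 in 1st relapse, 6 to 7 in 2nd relapse and 5 to 6 in Late relapse. Between relapses it gave 4 in 2nd against 1st relapse and 3 to 4 in both comparisons of Late relapse. With the replicate number as a block, 7 genes were called in 1st relapse KP and 3 in Chronic IFNG LLC1, and the other 8 counts stayed as they were.

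Of the 50 called differences with alternatives only Vim changed sign, with quantile normalisation, to 0.0179 in Relapsed LLC1 and -0.0559 in 2nd against 1st relapse. The other changes of sign were in uncalled differences near 0, given as the range over left-out libraries. In Chronic IFNG LLC1 Snai2 was -0.0472 to 0.0179 (0.0086 with median centring), Twist2 -0.0063 to 0.0955 and Vim -0.0599 to 0.0782 (-0.0047 with array weights). In Relapsed against Chronic IFNG LLC1 Twist1 was -0.0324 to 0.0050 and Cdh2 -0.0848 to 0.0877 (-0.0333 with median centring, -0.0331 with array weights). In Chronic IFNG KP Cdh2 was -0.0718 to 0.0181. In 2nd against 1st relapse Twist2 was -0.0366 to 0.0820 and Prrx1 -0.0420 to 0.0768 (-0.0059 with median centring). Zeb2 was -0.1377 to 0.0151 in Late against 1st relapse, and in Late against 2nd relapse Zeb2 was -0.0040 to 0.1194 and Twist2 -0.0040 to 0.1146 (-0.0096 with quantile normalisation). Where 2 libraries were left in a group, its spread was taken from all groups of the fit. Depth limits Twist1 in 2nd relapse (10.2 reads in all) and Snai1 and Snai2 in KP.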
